A study of Mus musculus with 4 samples.

Results

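Ribosomal protein processed pseudogenes were examined in 4 bulk RNA sequencing libraries of mouse pancreatic islets, small organs of endocrine cells embedded in the exocrine pancreas. They are the genes of the deposited count table whose symbol is that of a ribosomal protein gene followed by -ps, and that held at least 20 counts summed over the 4 libraries. Of 290 such symbols among 55536 genes, 93 met that minimum: 55 named after proteins of the large ribosomal subunit and 38 after proteins of the small one. Another 78 symbols had 1 to 19 counts and 119 had 0 in all libraries. The genes were thus selected on their measured counts, and the levels below are a description. In the annotation, 84 of the 93 were processed pseudogenes, 5 were transcribed processed pseudogenes, and 4 (Rpl9-ps6, Rpl10-ps3, Rps12-ps3 and Rpl36a-ps1) were protein-coding genes in spite of their names.

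A processed pseudogene forms when the spliced mRNA of a gene is copied back into DNA and inserted elsewhere in the genome, without introns and usually without the parent's promoter. Ribosomal protein genes are transcribed at high levels in nearly every cell, the germ line included, and mammalian genomes hold many such copies of them. Because a young copy differs little from its parent in sequence, short reads from the parent's mRNA and from the copy can be hard to assign to one of them.

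The islets came from male C57BL/6 mice aged 8 weeks. In both groups, polyadenylated RNA was made into libraries with a KAPA mRNA kit. The insulin-depleted group (n = 2) was also treated with a DepleteX insulin panel of Jumpcode Genomics during library preparation, and the non-depleted group (n = 2) was not, so the comparison asks what that step does to transcripts other than insulin. The labels call the libraries of a group biological replicates 1 and 2, nothing given shows that they came from separate animals, and p-values therefore measure the spread between these libraries. A tag that looks like size selection stands only in the non-depleted column names, and any effect of it cannot be told apart from that of depletion. Totals ran from 19316173 counts in insulin-depleted replicate 1 to 65030111 in insulin-depleted replicate 2. Ins1 and Ins2 took 4.14% and 3.97% of counts in the non-depleted libraries and 0.195% and 0.264% in the depleted ones. All levels are therefore CPM, counts scaled to a common library total, with these 2 genes left out of the total. All 12 markers of islet endocrine cells had counts in every library.

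The sequences below show how close the most abundant copies are to their parents. Each is a stretch of 90 bases of coding sequence, read 5′ to 3′ from GENCODE M21 transcripts of the GRCm38 build, in lower case, with capitals at bases where parent and copy differ. Rps23, a small-subunit protein near the decoding site, and Rps23-ps1 (chr3:37714740-37714829, plus strand) were the same over the first 90 coding bases, as they were over the whole copy.
Rps23: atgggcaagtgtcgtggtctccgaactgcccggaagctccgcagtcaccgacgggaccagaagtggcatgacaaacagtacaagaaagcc
Rps23-ps1: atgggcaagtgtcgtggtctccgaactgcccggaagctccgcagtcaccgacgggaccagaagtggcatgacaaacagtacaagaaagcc
Rps6, the small-subunit protein phosphorylated by S6 kinases, and Rps6-ps4 (chr2:75191733-75191822, minus strand) were likewise the same.
Rps6: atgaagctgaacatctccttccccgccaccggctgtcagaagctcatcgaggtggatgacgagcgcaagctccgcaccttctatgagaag
Rps6-ps4: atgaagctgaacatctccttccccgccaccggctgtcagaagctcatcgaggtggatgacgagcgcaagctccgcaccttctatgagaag
Rpl3, a large-subunit protein close to the peptidyl transferase centre, and Rpl3-ps1 (chrX:13202572-13202661, plus strand) differed at 1 base in this window.
Rpl3: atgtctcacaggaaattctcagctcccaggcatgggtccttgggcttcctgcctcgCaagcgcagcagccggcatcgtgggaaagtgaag
Rpl3-ps1: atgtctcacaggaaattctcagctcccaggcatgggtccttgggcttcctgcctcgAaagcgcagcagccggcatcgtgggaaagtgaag
Rps24, a small-subunit protein, and Rps24-ps3 (chrX:79195230-79195319, plus strand) differed at 2 bases between coding bases 184 and 273.
Rps24: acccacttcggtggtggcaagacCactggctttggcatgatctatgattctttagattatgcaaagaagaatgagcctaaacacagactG
Rps24-ps3: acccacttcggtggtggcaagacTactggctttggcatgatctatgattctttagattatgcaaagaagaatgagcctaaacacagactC

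The 93 pseudogenes lay on 20 chromosomes and were copies of 45 parent genes, that is, of the genes whose symbols stand before -ps. Up to 6 copies shared a parent, as for Rpl17, which lines the exit tunnel of the large subunit, and Rps15a, a small-subunit protein, while 20 parents had 1 copy. All but Rpl29-ps2 were a single block of sequence, and their lengths ran from 151 to 1323 bases with a median of 475. The median identity to the closest coding transcript of the parent was 98.9%, with 44 copies at 99% or more and 6 under 90%. The longest open reading frame was as long as the parent's in 64 copies, at least 90% of it in 74 and under 50% of it in 6. Of the 93, 55 overlapped no other gene, 19 lay in an intron of a gene on the opposite strand and 15 in an intron of a gene on the same strand. Another 3 sat over an exon of an opposite-strand gene and 1 over an exon of a same-strand gene. Whether the counting used strand is not given, so reads of an overlapping pair cannot be told apart.

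Levels were low and unequal. Mean levels over the 4 libraries ran from 0.0997 to 22.6 CPM with a median of 0.740 CPM, and 38 pseudogenes reached 1 CPM. Rps23-ps1 and Rps6-ps4 together held 22.1% of all counts of the 93, and the 12 with the highest mean CPM held 57.1%. Just inside the minimum stood Rpl18-ps1 with 20 counts, Rpl13-ps1 with 21, and Rpl10-ps1, Rps10-ps4 and Rpl38-ps1 with 22 each. Just outside it stood Rpl7a-ps3 with 18 counts, 7 symbols with 16 and Rpl19-ps1 with 15.

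Rps23-ps1 (chr3:37714740-37715164) stood at 21.8 CPM in replicate 1 and 25.5 CPM in replicate 2 of the non-depleted group, and at 18.6 and 24.5 CPM in those of the insulin-depleted group. Rps6-ps4 (chr2:75191073-75191822) stood at 17.5, 19.03, 18.3 and 19.5 CPM in the same order, which is used for every set of 4 values below. Rpl3-ps1 (chrX:13202571-13203780) stood at 7.87, 9.39, 8.09 and 10.7 CPM. In these 3 the groups overlapped, and the second replicate was above the first in both groups. Rpl38-ps2 (chr6:140746960-140747172), a copy of a large-subunit gene that has been tied to translation of Hox mRNAs, went the other way, with 8.91, 6.26, 11.3 and 5.95 CPM. Rpl19-ps11 (chr8:19492936-19493526) held 8.27, 8.67, 7.68 and 8.97 CPM. Divided by length, Rps23-ps1 was highest at a mean of 53.2 CPM per kilobase, followed by Rpl38-ps2 at 38.1, Rps6-ps4 at 24.8 and Rps24-ps3 at 21.6. The median of the 93 was 1.38 CPM per kilobase.

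Below these stood large-subunit copies with means of 4 to 8 CPM. Rpl14-ps1 (chr7:45324965-45325617), in an intron of the opposite-strand channel gene Trpm4, had 6.596, 7.09, 7.37 and 8.29 CPM, with both depleted libraries above both others. Rpl9-ps6 (chr19:32465865-32466578), annotated as protein-coding, had 6.14, 5.40, 5.60 and 6.23 CPM. Rpl17-ps10 (chr7:72648757-72649311) had 6.43, 4.23, 5.71 and 5.27 CPM, the non-depleted libraries lying on both sides of the depleted ones. Rpl31-ps8 (chr15:90764279-90764656) had 4.54, 3.54, 4.67 and 4.09 CPM. The small-subunit copy Rps16-ps2 (chr5:129128077-129128517) had 5.63, 4.51, 6.07 and 4.63 CPM, lower in replicate 2 in both groups. Their edgeR log2 fold changes for depletion ran from 0.03 for Rpl17-ps10 to 0.19 (SE 0.16) for Rpl14-ps1, and the 95% interval of each included 0.

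**Figure D1:**
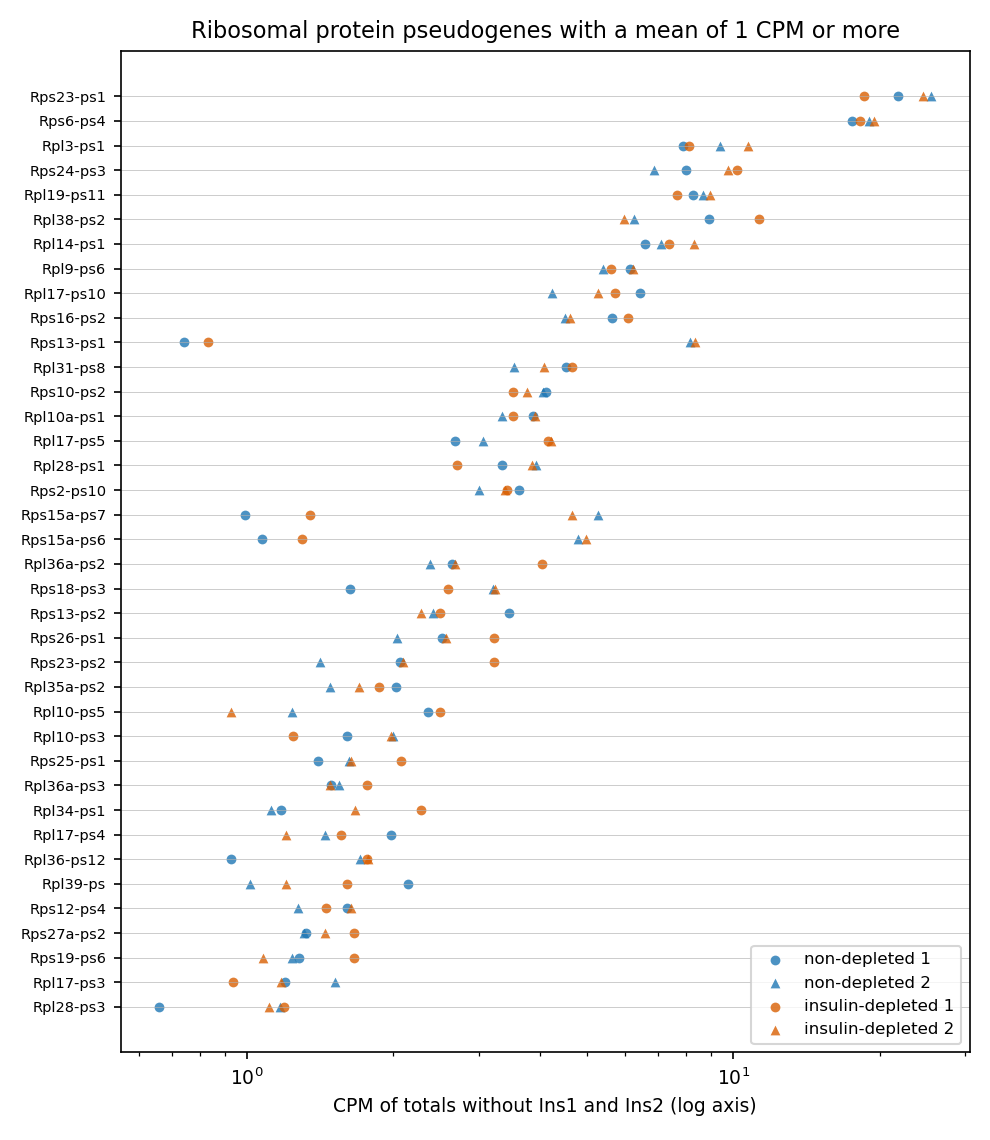
Levels of the 38 pseudogenes with a mean of 1 CPM or more, in CPM on a log axis, with 1 point for each of the 4 libraries. Colours mark the groups and shapes the replicate number. Rps23-ps1 and Rps6-ps4 lie above all others, and for Rps13-ps1, Rps15a-ps7 and Rps15a-ps6 both triangles (replicate 2) lie far to the right of both circles.

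The sequence that a copy shares with other genes was counted in stretches of 31 bases, each taken as shared where the same stretch occurs in an annotated transcript of another gene. In 22 of the 93, every stretch was shared. In 24 more, 90% to under 100% of stretches were shared, in 39 it was 50% to under 90%, and in 8 it was under 50%. All stretches of 13 copies were found in the parent itself, and these 13 matched it at every base, so that no read within them can be told from the parent's by its bases alone. Among them were Rps23-ps1, Rps6-ps4, Rpl38-ps2, Rps16-ps2, Rpl31-ps8 and Rps13-ps2. The fully shared copies held 43.3% of the counts of the 93. The median level of the 4 classes, from fully shared to under 50% shared, was 4.85, 2.03, 1.13 and 0.485 CPM per kilobase. Across the 93, Spearman's rho between level per kilobase and share was 0.35, given as a description since the copies share libraries, parents and sequence.

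Of the copies with a mean of 1 CPM or more, those with the lowest shares could be told apart best by their own bases. They were Rpl36-ps12 with 70.3% of stretches shared, Rpl28-ps3 and Rpl39-ps with 74.4%, Rps24-ps3 with 75.5% and Rps26-ps1 with 78.0%. By position, Rpl36-ps12 lies in an intron of Sumf1 on the same strand. Rpl28-ps3 and Rps26-ps1 lie in introns of Oscp1 and Wwp2 on the opposite strand. The part of reads from those genes in the levels of these copies was not tested. Rps26-ps1 (chr8:107439131-107439579), a transcribed processed pseudogene with 94.7% identity to Rps26, had 2.51, 2.03, 3.22 and 2.56 CPM, and its log2 fold change for depletion was 0.33 (SE 0.27). Rpl28-ps3 (chr4:126069867-126070259) had 0.660, 1.17, 1.19 and 1.11 CPM, with 1 non-depleted library below the other 3 libraries. Among the copies annotated as protein-coding, Rps12-ps3, which matches Rps12 at every base, had 26, 18, 24 and 36 counts, and Rpl36a-ps1 had 4, 28, 6 and 28.

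Passing the minimum also went with sharing. Of the 290 symbols, 46 of 68 with at least 90% shared stretches met it (67.6%), against 39 of 98 with 50% to under 90% (39.8%) and 8 of 124 with less (6.45%). The median share was 89.9% in the 93 and 40.7% in the 197 below the minimum. Counts were mostly even, which was the case for 83.9%, 87.1%, 88.2% and 86.0% of the 93 in the 4 libraries. The share of even counts over all genes is not given here, so this cannot be read as particular to these copies. How reads that map to several places were counted is not given, and the part of parental reads in these levels was not tested.

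Set beside their parents per kilobase, with the parent's length taken from its coding transcript closest to the copy, 92 of 93 pseudogenes were lower. The median was 0.339% of the parent's level, 62 copies were under 1% and 5 at 10% or more. The parents stood at a median of 388 CPM per kilobase, with Rpl10, which shapes the peptidyl-tRNA site, highest at 1127. Spearman's rho between the levels of copy and parent per kilobase was -0.11 over the 93, again as a description. Among copies of parents other than Rps10, Rps23-ps1 had the highest share at 15.5% of Rps23, followed by Rps16-ps2 at 10.1% of Rps16. Rps6-ps4 stood at 4.86% of Rps6, Rps24-ps3 at 6.81% of Rps24 and Rpl3-ps1 at 2.21% of Rpl3. The lowest was Rpl10-ps1, which matches Rpl10 at every base, at 0.0156%.

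The exception was Rps10-ps2 (chr16:20822145-20822640), a copy of a small-subunit gene mutated in some cases of Diamond-Blackfan anaemia. It held 4.12, 4.06, 3.53 and 3.76 CPM, while Rps10 (chr17:27630418-27636669) held 1.67, 1.84, 1.35 and 1.53 CPM. Per kilobase the copy stood at 248%, 221%, 263% and 247% of its parent, 243% for the means, so the copy was above the parent in 4 of 4 libraries. The parent is what sets this pair apart: Rps10 stood at 3.21 CPM per kilobase, and the lowest parent level beside any of the 90 copies of other genes was 43.8, that of Rps15a beside Rps15a-ps4. That value depends on the length of the transcript closest to Rps15a-ps4, and Rps15a itself stood at a mean of 227 CPM. Rps10-ps1 reached 59.0% and Rps10-ps4 11.6% of Rps10, the latter on 5, 2, 10 and 5 counts. Of the 2311 exon bases of Rps10, 475 (20.6%) also belong to a same-strand gene, RPS10-NUDT3, which had 0 counts in all 4 libraries. The 2311 bases join the exons of all annotated transcripts of Rps10, whereas its level per kilobase uses the length of a single coding transcript. The share of that transcript inside the overlap was not measured and can be larger. The part of this overlap in the low count of Rps10 was not tested. Without the 3 copies of Rps10, the median share of the parent's level was 0.315% over 90 copies.

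**Figure D2:**
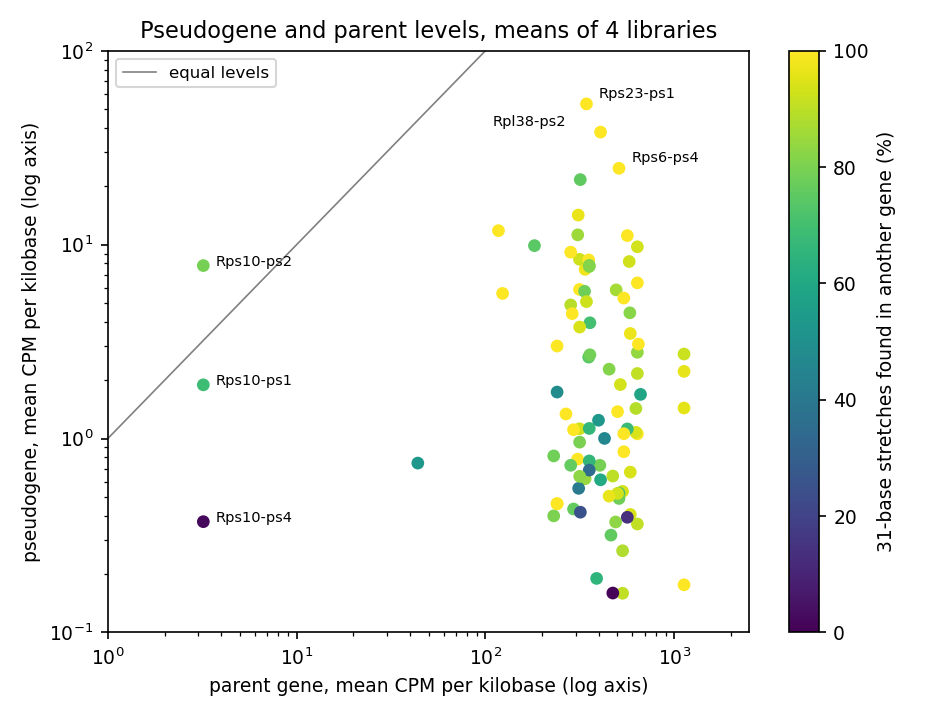
Mean level of each of the 93 pseudogenes against that of its parent, both in CPM per kilobase on log axes, coloured by the percentage of 31-base stretches found in another gene. The line marks equal levels. The 92 points under it are lower than their parents, Rps10-ps2 alone lies above it, and the 3 copies of Rps10 stand at the far left.

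The depletion step was tested in edgeR over 19723 genes, of which 86 were pseudogenes of the 93. The other 7 (Rpl10-ps1, Rpl13-ps1, Rpl18-ps1, Rpl38-ps1, Rpl7a-ps10, Rps10-ps4 and Rps12-ps26) did not pass the filter on low counts. None of the 86 passed an adjusted p of 0.05 in edgeR's quasi-likelihood test in either direction, where 0.0101% of all genes did, namely Ins1 and Ins2, both lower. DESeq2 and limma-voom also called 0 of them. At an unadjusted edgeR p under 0.05 stood 2 of the 86 (2.33%), against 0.416% of all genes tested. The share was 0.802% among other processed pseudogenes and 1.44% among other symbols ending in -ps. The median log2 fold change of the 86, insulin-depleted over non-depleted, was 0.07, with 55 above 0 and 31 below, and that of all genes was -0.0025. For 997 other processed pseudogenes tested it was 0.14, with 621 above 0 and 376 below. For the 45 parents it was -0.04, with 4 above 0 and 41 below, and for 82 cytosolic ribosomal protein genes tested it was -0.04, with 13 above 0 and 69 below. The fit was on group alone, so differences between the replicate numbers count as error in it. Its precision was limited: the 95% interval of a pseudogene had a median half-width of 1.07 on the log2 scale, and 40 of 86 had one under 1.

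Levels of the 2 groups did not overlap in 25 of the 86. In 18 (20.9%) both depleted libraries were higher, where 10.2% of all genes tested were, and in 7 (8.14%) both were lower, against 9.33%. These 7 include Rps19-ps1 and Rps19-ps2, whose counts are the same. Among the other processed pseudogenes the shares were 23.3% and 10.5%. Compared by replicate number, 33 pseudogenes (38.4%) were higher after depletion in both pairs against 25.4% of all genes, and 18 (20.9%) were lower in both against 25.5%. Among the other processed pseudogenes these shares were 35.5% and 17.8%, and among other symbols ending in -ps they were 36.7% and 14.4%. Of the parents, 3 were higher and 29 lower in both pairs. Across the 86, Spearman's rho between the log2 fold changes of copy and parent was -0.05, as a description over genes that share libraries.

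Rps24-ps3 (chrX:79195047-79195448) had 8.00 and 6.86 CPM in the non-depleted libraries and 10.2 and 9.78 CPM in the depleted ones, so the groups did not overlap. Group means were 7.43 ± 0.802 and 9.97 ± 0.277 CPM (SD, n = 2 each). In edgeR the log2 fold change was 0.42 (SE 0.16, 95% interval 0.015 to 0.82, adjusted p = 1.0). Its parent Rps24, also among the genes mutated in Diamond-Blackfan anaemia, stood at 570, 459, 551 and 471 CPM, a log2 fold change of -0.01 (SE 0.15). Rpl17-ps5 (chr5:22612628-22613182) had 2.68 and 3.06 CPM without and 4.15 and 4.21 CPM with depletion, again with no overlap. In edgeR the log2 fold change was 0.54 (SE 0.21, 95% interval 0.013 to 1.06, adjusted p = 1.0). These are the 2 copies counted above at an unadjusted p under 0.05. All of its 31-base stretches occur in other genes, and it lies in an intron of an opposite-strand gene.

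The highest log2 fold changes among copies with a mean of 1 CPM or more were 0.76 (SE 0.31) for Rpl34-ps1, 0.59 (SE 0.36) for Rps23-ps2, the value of Rpl17-ps5, 0.42 (SE 0.37) for Rpl36-ps12 and that of Rps24-ps3. Leaving out 1 library moved Rps23-ps2 over 0.26 to 0.90, the ends being without insulin-depleted replicate 1 and without non-depleted replicate 1. Rpl36-ps12 moved over 0.064 to 0.91, without non-depleted replicate 1 and 2 respectively, so the order of these copies depends on single libraries. Rpl34-ps1 (chr6:71124610-71124963), a large-subunit copy, had 1.17 and 1.12 CPM without and 2.28 and 1.67 CPM with depletion, and the 95% interval of its log2 fold change ran from -0.018 to 1.53. Rps23-ps2 (chr8:3583799-3584230) had 2.06, 1.41, 3.22 and 2.10 CPM, with the lower depleted library just above the higher non-depleted one. Rpl36-ps12 lies in an intron of Sumf1 on the same strand, and its 0.928, 1.70, 1.76 and 1.77 CPM set 1 non-depleted library apart from the other 3 libraries. The lowest log2 fold changes were -0.35 (SE 0.32) for Rpl17-ps3, -0.34 (SE 0.33) for Rpl17-ps4, -0.31 (SE 0.29) for Rps13-ps2, -0.20 (SE 0.45) for Rpl39-ps and -0.17 (SE 0.20) for Rps10-ps2. Without non-depleted replicate 1, Rps13-ps2 was at -0.0092 and Rpl17-ps4 at -0.077, and without non-depleted replicate 2 they were at -0.56 and -0.56. Rpl17-ps3 ranged from -0.18 without non-depleted replicate 2 to -0.53 without insulin-depleted replicate 2. Rpl17-ps3 had 1.20, 1.51, 0.934 and 1.17 CPM, and its groups did not overlap, nor did those of Rps10-ps2 given above. Copies of Rpl17 thus stood at both ends of the order, and neither end passed the test across all genes. For the most abundant copies the intervals were narrower: Rps6-ps4 had a log2 fold change of 0.04 with a 95% interval from -0.24 to 0.32, and Rps23-ps1 one of -0.13 from -0.54 to 0.27.

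**Figure D3:**
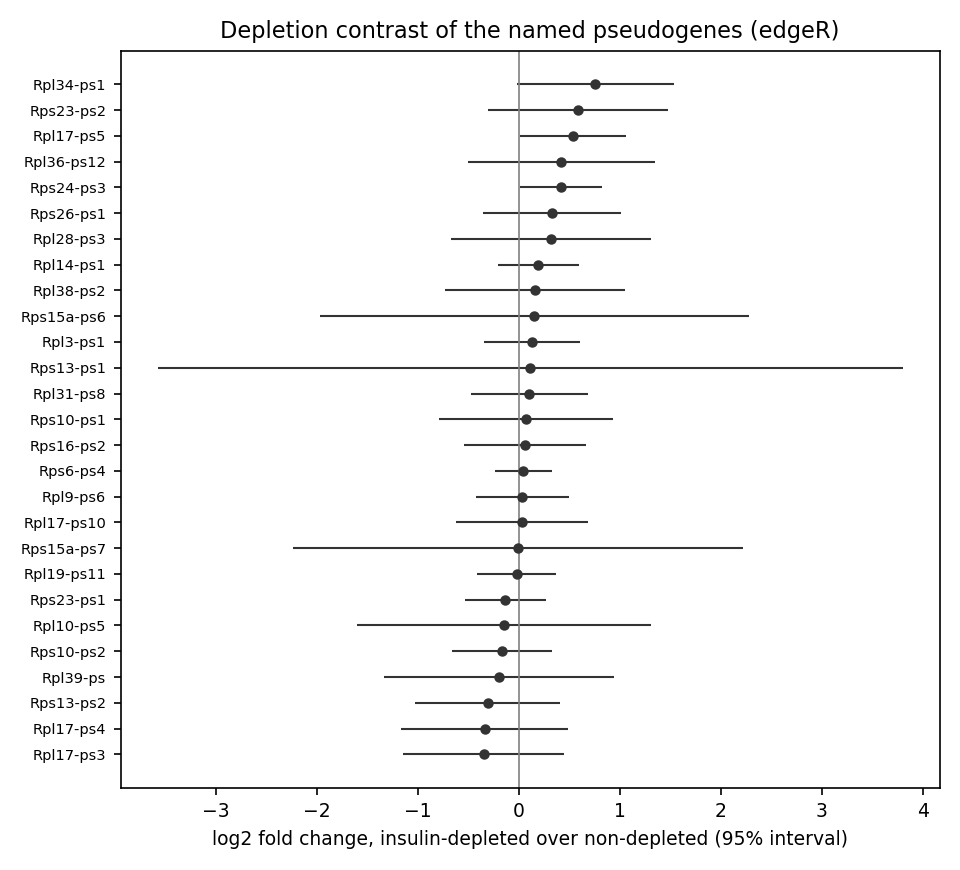
Log2 fold change, insulin-depleted over non-depleted, of the 27 named pseudogenes that were tested, with points for the edgeR estimate and lines for its 95% interval. The lines of Rps24-ps3 and Rpl17-ps5 alone lie wholly above 0, and those of Rps13-ps1, Rps15a-ps6 and Rps15a-ps7 are the widest. The fit has no term for the replicate number.

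Summed over the 93, the pseudogenes took 178.1 and 190.4 CPM in the non-depleted and 188.1 and 203.1 CPM in the depleted libraries. The means were 184 ± 8.66 and 196 ± 10.6 CPM (SD, n = 2 each), a ratio of 1.06, with 1.06 for the libraries numbered 1 and 1.07 for those numbered 2. The exact two-sided permutation p was 0.667, and the smallest that 2 against 2 libraries can give is 0.333. The parents together held 15236, 12461, 14753 and 12348 CPM, a ratio of 0.978. The pseudogenes' counts thus came to 1.17%, 1.53%, 1.28% and 1.64% of their parents' counts, which separates the replicate numbers more than the groups. Group means of this percentage were 1.35 ± 0.254 and 1.46 ± 0.261 (SD, n = 2 each), with an exact permutation p of 0.667 (two-sided), and the libraries of number 1 and of number 2 each gave a higher value after depletion, by ratios of 1.09 and 1.08.

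The replicate numbers differed far more than the groups for a few copies. Rps13-ps1 (chr8:87047689-87048226, plus strand) had 36 and 474 counts in the non-depleted and 16 and 542 counts in the depleted libraries, or 0.742, 8.15, 0.830 and 8.36 CPM. It was 10.99-fold higher in replicate 2 without depletion and 10.1-fold higher with it. Rps15a-ps7 (chr2:152185291-152185682) had 0.989, 5.26, 1.35 and 4.66 CPM, 5.32-fold and 3.45-fold higher. Rps15a-ps6 (chr11:6172644-6173036) had 1.07, 4.78, 1.30 and 4.98 CPM, 4.46-fold and 3.84-fold higher. In each of these 3, both second replicates lay above both first ones. Of the 38 copies with a mean of 1 CPM or more, these 3 were at least 2-fold higher in replicate 2 in both groups, and 0 were at least 2-fold lower. Among all genes at that level, 0.507% were higher in this way and 0.797% lower. These ratios are descriptions, since each rests on 1 library per number and group.

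The parents moved the other way between the replicate numbers. Rps13 stood at 234, 155, 206 and 147 CPM, so replicate 2 was at 0.662 and 0.716 times replicate 1 without and with depletion. Rps15a stood at 289, 168, 284 and 168 CPM, at 0.580 and 0.591 times. Of the 45 parents, 41 were lower in replicate 2 in both groups and 3 higher, while the 38 copies split into 17 lower, 14 higher and 7 mixed. Nudcd3, in whose intron Rps15a-ps6 lies on the same strand, stood at 158, 165, 153 and 158 CPM, with no such split. Rps13-ps1 and Rps15a-ps7 overlap no other gene. All 12 acinar markers, digestive enzymes and related proteins of the exocrine pancreas, were also lower in replicate 2 in both groups, with summed levels of 12984, 5383, 13012 and 5399 CPM and none at 0. All 5 stellate and fibroblast markers were lower too, with sums of 511, 475, 508 and 472 CPM. All 5 endothelial markers were higher in replicate 2 in both groups, with sums of 852, 943, 863 and 942 CPM, a far smaller difference than that of the 3 copies. Of the endocrine markers, 7 of 12 were higher and 4 lower in both groups, of the ductal ones 1 of 5 and 3, of the immune ones 2 of 4 and 1, of the erythroid ones 2 of 3 and 0, and of the Schwann cell ones 0 of 3 and 1. The part of any of these in the difference was not tested, and in bulk RNA fewer cells of a type and less RNA per cell cannot be told apart.

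The sequences of these copies, chosen for display after their values were seen, were close to the parents' but not the same. In the windows below, capitals in the parent mark bases at which any copy shown differs, and capitals in a copy mark its own differences. Rps13-ps1 (chr8:87048059-87048148, plus strand) differed from Rps13 at 2 of the 90 bases that end at coding base 429, and Rps13-ps2 (chr7:88530470-88530559, minus strand) at 0.
Rps13: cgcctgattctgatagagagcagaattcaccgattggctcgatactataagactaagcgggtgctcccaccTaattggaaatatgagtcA
Rps13-ps1: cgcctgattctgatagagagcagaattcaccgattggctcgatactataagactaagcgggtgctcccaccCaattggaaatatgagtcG
Rps13-ps2: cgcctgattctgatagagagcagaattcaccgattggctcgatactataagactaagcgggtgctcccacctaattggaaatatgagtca
Rps15a-ps6 (chr11:6172851-6172940, minus strand) differed from Rps15a at 3 of 90 bases and Rps15a-ps7 (chr2:152185498-152185587, minus strand) at 1.
Rps15a: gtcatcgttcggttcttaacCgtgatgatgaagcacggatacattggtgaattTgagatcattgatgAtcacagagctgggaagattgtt
Rps15a-ps6: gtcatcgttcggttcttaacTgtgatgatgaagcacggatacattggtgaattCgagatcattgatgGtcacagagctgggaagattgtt
Rps15a-ps7: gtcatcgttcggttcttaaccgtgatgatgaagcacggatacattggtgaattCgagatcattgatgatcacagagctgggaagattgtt
Over their whole length, 92.3% of the 31-base stretches of Rps13-ps1, 81.3% of those of Rps15a-ps6 and 81.2% of those of Rps15a-ps7 occur in another gene. Rps13-ps2, which matches Rps13 at every base, did not show the split: it had 3.46, 2.41, 2.49 and 2.28 CPM, lower in replicate 2 in both groups as its parent was. Rps13-ps4, with 25, 22, 8 and 48 counts, stood at 0.734 times replicate 1 without depletion and 1.78 times with it.

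A further copy with few shared stretches gave counts in the second replicates alone. Rps15a-ps8 (chr4:53791070-53791456, minus strand) had 0 and 26 counts without and 0 and 40 counts with depletion. Against a floor of 3 counts per library, it was at least 7.23-fold higher in replicate 2 without depletion and at least 3.96-fold higher with it, and such floors cover counting error only. It was singled out after its values were seen. Of its stretches, 35.0% occur in another gene, and it differed from Rps15a at 12 of 90 bases in the window below (chr4:53791355-53791444).
Rps15a: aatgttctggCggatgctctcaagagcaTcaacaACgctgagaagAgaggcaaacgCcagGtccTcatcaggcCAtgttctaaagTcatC
Rps15a-ps8: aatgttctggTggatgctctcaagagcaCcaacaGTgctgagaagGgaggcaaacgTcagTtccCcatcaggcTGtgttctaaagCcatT
The other 3 copies of Rps15a did not share this pattern in both groups. Rps15a-ps4 had 36, 14, 7 and 10 counts and was lower in replicate 2 in CPM, Rps15a-ps3 had 18, 20, 6 and 12 counts, and Rps15a-ps5 had 26, 30, 2 and 40. Copies of 1 parent therefore ranged from lower to many-fold higher in replicate 2.

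Other copies with a difference between replicate numbers were smaller cases. Rps18-ps3 (chr8:107262793-107263248), whose closest coding gene is Gm11361 and not Rps18, had 1.63, 3.20, 2.59 and 3.24 CPM, 1.96-fold and 1.25-fold higher in replicate 2. Rps18 itself stood at 348, 213, 332 and 210 CPM, lower in replicate 2. Rpl10-ps5 (chr8:94222993-94223634), in an intron of Nup93 on the same strand, was lower in replicate 2, with 2.35, 1.24, 2.49 and 0.925 CPM. Rpl39-ps (chr15:102635038-102635188), a copy of the gene of a small protein at the exit tunnel, was also lower, with 2.14, 1.02, 1.61 and 1.20 CPM. Without Rps13-ps1, Rps15a-ps6 and Rps15a-ps7, the remaining 90 copies summed to 175.3, 172.2, 184.7 and 185.1 CPM. Replicate 2 was then slightly lower without depletion and nearly equal with it, so most of its higher summed level rested on those 3. In this sum both depleted libraries lay above both others. The 3 copies were left out after their values were seen, and this sum was not tested.

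**Figure D4:**
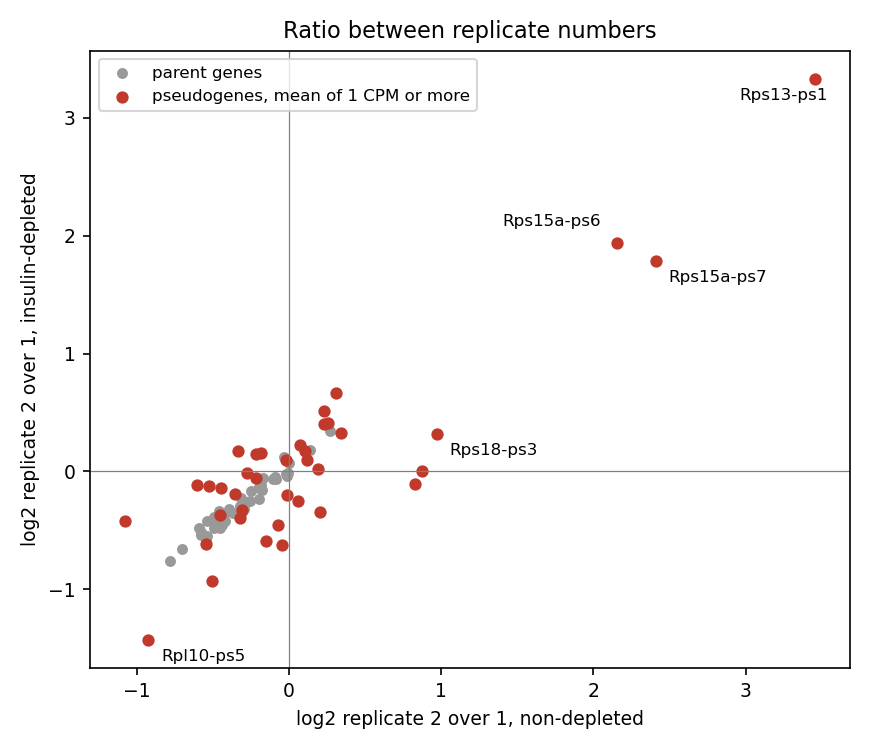
Log2 ratio of replicate 2 over replicate 1 in the insulin-depleted libraries against that in the non-depleted libraries, for the 38 pseudogenes with a mean of 1 CPM or more (red) and for the 45 parents (grey). Most parents lie below 0 on both axes, and Rps13-ps1, Rps15a-ps6 and Rps15a-ps7 lie apart at the upper right.

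Some copies are identical to each other in sequence. Rps19-ps1 (chr14:53213730-53214167) and Rps19-ps2 (chr14:52902793-52903230) have the same 438 bases and had the same counts in every library, 15, 11, 3 and 10. Rps19 encodes the small-subunit protein most often mutated in Diamond-Blackfan anaemia, and both copies differ from it, with an identity of 98.2%. Rpl35a-ps2, Rpl35a-ps3 and Rpl35a-ps4 also share the same 333 bases, yet had different counts. Rpl35a-ps2 had 98, 86, 36 and 110 counts, Rpl35a-ps3 had 14, 16, 8 and 28, and Rpl35a-ps4 had 4, 20, 6 and 26. The order of the 3 copies by CPM was the same in non-depleted replicate 1 and both depleted libraries, while in non-depleted replicate 2 Rpl35a-ps4 was above Rpl35a-ps3. For such copies the value of a single gene is uncertain.

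Depth set a limit for the low copies. A count of 3 was worth 0.0618, 0.0516, 0.156 and 0.0463 CPM, and at 0 stood Rps15a-ps8 in both first replicates and Rps12-ps9, Rpl30-ps10 and Rpl7a-ps10 in insulin-depleted replicate 1, the shallowest library. The lowest and highest log2 fold changes of all 86 belonged to copies with few counts. Rpl31-ps6 had 13, 12, 2 and 1 counts and a log2 fold change of -2.48 (SE 1.06), and Rpl13-ps6 had 14, 10, 16 and 22 counts and one of 1.25 (SE 0.69). Both were chosen for display after their values were seen.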

How the data were processed

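Polyadenylated RNA of mouse islets was measured in 4 libraries, and the authors deposited 1 table of whole-number gene counts without normalization. The deposited non-depleted columns carry the unit expected counts here for a technical reason, a word in their headers that reads as a size. They hold raw counts too, and rounding changed nothing. Reads were processed with cutadapt 4.8, STAR 2.7.11b and the builds GRCm38 and mm10, which name 1 assembly, per the submitters' processing notes, which give no roles. Which program counted the reads, whether it used strand and how it treated reads with several matches is not given in the sources used here. All 55536 identifiers matched GENCODE M21, from which positions and transcript sequences were read. Columns whose names lack the depletion tag were taken as non-depleted, with the replicate number at the name's end.

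All genes entered 1 test in edgeR 4.0.16 under R 4.3.3 (filterByExpr, TMM, robust quasi-likelihood fit on group alone), with Benjamini-Hochberg adjustment over all genes tested and a threshold of 0.05. The common dispersion was 0.0291. On simulated counts of 19276 genes for this contrast, with 50 genes changed at each fold, edgeR recovered 3 at 1.5-fold, 34 at 2-fold and all 50 at 4-fold. It made 8 false calls. In this simulation, changes were confined to genes at higher levels than most of the pseudogenes. The recovery therefore does not show how many changes would be found at the median level of the pseudogenes, 0.740 CPM. Alternatives were DESeq2 1.42.0, limma-voom (limma 3.58.1), other scalings and filters, counts divided by 2, a replicate block and leaving out each library. Summed levels were compared by exact permutation over libraries. Copies were aligned to parent transcripts with edlib 1.3.9.post1. Floors of 3 counts cover counting error only, and intervals of log2 fold changes come from the edgeR fit.

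The members and lists were chosen with earlier results of these data known. Named pseudogenes are the 12 with the highest mean CPM, and, where the mean reached 1 CPM, the 5 with the highest and the 5 with the lowest log2 fold change, the 5 with the lowest share of 31-base stretches in another gene and the 5 with the largest ratio between replicate numbers, with the 5 highest shares of the parent's level. Any other pseudogene given with values was chosen after its values were seen.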

Additional observations from a re-analysis of the deposited data

How the results depend on the processing

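No pseudogene was called under any alternative run: other scalings, no filter, DESeq2, limma-voom, counts divided by 2, the replicate block, or leaving out 1 library, where the lone library is assumed to vary like the other group. Among all genes, the replicate block moved the calls from 0 to 2 higher and from 2 to 7 lower. Deviations of same-numbered libraries correlated at r = 0.845 over 11552 genes. The acinar sums given above were also close within a number and far apart between the numbers. The labels do not say whether a number marks shared material, and this was not tested. The main fit has no term for the replicate number, so differences between the numbers enter its error. For Rps13-ps1 the SE was 1.37 in the main fit and 0.18 with the block, and for Rps15a-ps6 0.84 and 0.21. For some copies it was larger with the block, as for Rps10-ps1 at 0.34 and 0.40. With the block, the median log2 fold change of the pseudogenes was 0.07. For the summed level (11.4 CPM) and the percentage of parental counts (0.112 points), the block gives the unpaired difference by arithmetic and so tests nothing. That median became 0.11 with counts divided by 2, 0.046 without copies that overlap a gene, 0.10 with a minimum of 100 counts and 0.19 for the 5 tested with under 50% of stretches shared. Leaving out 1 library gave medians from 0.017 to 0.10 and differences of the summed level from 3.89 to 18.9 CPM. Differences of the percentage ran from -0.0732 to 0.296 points, so its sign changed with the library left out. Each such run leaves the replicate numbers unequal between the groups, so differences between the numbers enter these ranges and those below. Within numbers 1 and 2, the difference of the percentage was 0.106 and 0.117 points. Over the 86 tested, DESeq2 and limma-voom each gave 53 log2 fold changes above 0 and 33 below, against 55 and 31 in the main fit. Copies that are not named therefore changed sign too, and the values below are those of the named copies alone. Among these, log2 fold changes that changed sign with limma-voom were those of Rpl19-ps11 (0.0092), Rpl38-ps2 (-0.047), Rps15a-ps7 (0.43) and Rps16-ps2 (-0.0045). With counts divided by 2, that of Rps15a-ps7 (0.045) did. Leaving out 1 library also changed the sign of these, over ranges from -0.97 to 0.48 (Rpl10-ps5), -0.25 to 0.38 (Rpl17-ps10), -0.14 to 0.069 (Rpl19-ps11), -0.019 to 0.78 (Rpl28-ps3), -0.087 to 0.30 (Rpl3-ps1), -0.072 to 0.31 (Rpl31-ps8), -0.37 to 0.58 (Rpl38-ps2), -0.65 to 0.46 (Rpl39-ps), -0.065 to 0.14 (Rpl9-ps6), -0.063 to 0.22 (Rps10-ps1), -2.41 to 2.67 (Rps13-ps1), -1.17 to 1.58 (Rps15a-ps6), -1.21 to 1.63 (Rps15a-ps7), -0.15 to 0.27 (Rps16-ps2), -0.34 to 0.036 (Rps23-ps1) and -0.00015 to 0.095 (Rps6-ps4). Without a change of sign, it moved Rps26-ps1 over 0.16 to 0.51, Rpl14-ps1 over 0.11 to 0.26, Rps24-ps3 over 0.30 to 0.55 and Rpl34-ps1 over 0.52 to 0.9976. None of these passed the test, and the causes were not tested. Depth limits the copies near the minimum most, in insulin-depleted replicate 1 above all.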
